A study of Mus musculus with 3 samples.

Results

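Methylated regions of epididymal fat were compared between a high-fat diet (HFD) and a normal diet (ND) by pairing the peaks of both libraries. An ND peak and an HFD peak formed a pair when they shared at least 1 bp, on autosomes only. Of 226156 autosomal peaks in both lists, 80647 ND peaks and 79659 HFD peaks were members of a pair, out of 332157 peaks in all libraries and on all chromosomes of the study.

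The study profiled DNA methylation by methylated DNA immunoprecipitation, in which an antibody pulls down methylated fragments before sequencing, in 3 libraries, 1 per diet. The mice were male C57BL/6J, began the diets at 6 weeks of age and were 16 weeks old at collection, after 10 weeks of feeding. ND drew about 10% of its energy from fat and HFD about 60%, and neither group received folic acid. The third library (FAD) came from mice on the same 60% fat diet with 20 μg/mL folic acid in the drinking water, and its values stand only beside regions chosen without it. The sources used here do not say whether a library was 1 animal or several pooled animals. With 1 library per diet there was no replicate check and no test, so each difference lies between 2 libraries. Intervals printed with shares and medians are at 95% and cover counting error over peaks only.

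In mammalian tissue most cytosines of CpG dinucleotides are methylated, while CpG-rich promoters of active genes are largely free of the mark. Promoters of many germline genes and 1 parental copy of imprinting control regions are exceptions that stay methylated in somatic cells. Epididymal fat, the visceral fat pad beside the epididymis, stores triglyceride, and on a high-fat diet it enlarges and takes up immune cells. In such bulk tissue fewer cells of a type and less methylation per cell cannot be told apart.

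Promoter windows show what kinds of sequence the peaks lay on. Windows ran from 250 bp before to 50 bp after each RefSeq start of a protein-coding gene (assembly GRCm38.p6, the assembly of build mm10), and 20085 windows of 16457 genes were available. The 250 bases before the start are printed here for 6 genes whose whole window was covered by a peak, with CG dinucleotides in capitals. They were chosen after the values were seen: the first 2 have the highest mean score rank over a pair, and the others the highest scores among peaks over 5000 bp from the other list. D1Pas1, a germline DEAD-box helicase gene, and Tmem267, a transmembrane protein gene, had a peak in both lists.
D1Pas1: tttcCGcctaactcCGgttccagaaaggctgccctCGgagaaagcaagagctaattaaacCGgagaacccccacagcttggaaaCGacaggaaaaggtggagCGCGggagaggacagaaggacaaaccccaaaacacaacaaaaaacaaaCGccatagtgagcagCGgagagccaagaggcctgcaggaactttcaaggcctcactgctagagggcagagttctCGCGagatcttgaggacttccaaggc
Tmem267: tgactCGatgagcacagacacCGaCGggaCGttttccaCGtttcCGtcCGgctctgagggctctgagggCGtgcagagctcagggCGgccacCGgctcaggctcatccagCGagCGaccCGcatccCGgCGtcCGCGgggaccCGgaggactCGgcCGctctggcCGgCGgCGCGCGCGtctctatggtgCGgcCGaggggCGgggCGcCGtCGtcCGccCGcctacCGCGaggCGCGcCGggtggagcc
The D1Pas1 stretch (mm10 chr1:186967166-186967415, plus strand) holds 11 CG and the Tmem267 stretch (chr13:119488223-119488472, plus strand) holds 39. The D1Pas1 peak was 2285 bp wide with a score of 771.22 in ND and 2310 bp wide with a score of 1027.36 in HFD. The Tmem267 peak was 1984 bp wide in ND and 2669 bp wide in HFD. Their score ranks were between 99.5 and 99.9, where 100 is the highest of the list.

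Mtnr1b, which encodes a melatonin receptor, and Boll, a germline RNA-binding protein gene of the DAZ family, had a promoter peak in HFD and none in ND.
Mtnr1b: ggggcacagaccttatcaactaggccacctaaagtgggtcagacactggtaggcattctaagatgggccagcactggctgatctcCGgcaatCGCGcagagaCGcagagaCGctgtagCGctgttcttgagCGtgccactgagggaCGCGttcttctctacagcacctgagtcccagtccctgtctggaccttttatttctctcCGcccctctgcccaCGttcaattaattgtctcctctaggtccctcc
Boll: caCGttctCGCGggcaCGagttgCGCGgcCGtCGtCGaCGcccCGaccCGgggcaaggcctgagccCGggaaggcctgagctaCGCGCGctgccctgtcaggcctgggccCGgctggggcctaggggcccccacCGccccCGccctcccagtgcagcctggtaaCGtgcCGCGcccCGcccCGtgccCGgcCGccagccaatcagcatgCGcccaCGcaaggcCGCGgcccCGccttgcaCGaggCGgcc
Mtnr1b (chr9:15874557-15874806, minus strand) holds 11 CG and Boll (chr1:55362729-55362978, minus strand) holds 33. The HFD peak at Mtnr1b scored 303.42 and the nearest ND peak was 24574 bp away. At Boll the HFD peak scored 258.32 and the nearest ND peak was 18610 bp away. Both promoters also had a peak in FAD.

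Capn3, the gene of the muscle protease calpain 3, and Lypd10, a gene of the Ly6/PLAUR domain family, had a promoter peak in ND and none in HFD.
Capn3: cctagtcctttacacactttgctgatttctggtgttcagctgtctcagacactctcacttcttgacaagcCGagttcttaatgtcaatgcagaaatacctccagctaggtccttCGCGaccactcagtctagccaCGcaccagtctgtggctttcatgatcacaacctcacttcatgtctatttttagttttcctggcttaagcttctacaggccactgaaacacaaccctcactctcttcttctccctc
Lypd10: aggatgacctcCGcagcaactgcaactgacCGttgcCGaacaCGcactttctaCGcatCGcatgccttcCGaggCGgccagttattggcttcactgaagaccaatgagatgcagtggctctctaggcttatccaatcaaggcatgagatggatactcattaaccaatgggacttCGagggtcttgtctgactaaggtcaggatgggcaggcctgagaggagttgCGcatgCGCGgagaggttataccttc
Capn3 (chr2:120463343-120463592, plus strand) holds 4 CG and Lypd10 (chr7:24709009-24709258, plus strand) holds 12. The ND peaks scored 74.67 and 73.16, well below the HFD-only scores above, and neither promoter had a peak in FAD. The nearest HFD peaks were 12666 and 11102 bp away.

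The ND list held 96063 autosomal peaks over 55.9 Mb with a median width of 504 bp, and the HFD list held 130093 peaks over 85.2 Mb with a median width of 585 bp. Each peak carries the authors' score, which was at least 50 in both lists and had nearly the same median, 100.35 in ND and 100.22 in HFD. The score behaved as −10 times log10 of a Poisson tail, and it gave back whole read counts for 38.2% of ND and 45.0% of HFD peaks. That reading rests on the values themselves and not on a statement of the authors. The implied background was 5.02 reads per kb in ND and 8.22 in HFD, a ratio of 1.64, which is used below as the ratio of depths. Computed from that Poisson reading, the fewest reads that reach a score of 50 were 10 in ND, 5.96 times the background. In HFD, with the deeper background, they were 13, 4.32 times the background. The fewest reads found in a peak with a recovered count were 11 in ND and 13 in HFD. The needs used below are the computed ones. Depth and diet cannot be told apart in 2 libraries, and all results on list length, width and score stand beside this difference.

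Most ND regions were found again on the high-fat diet, while many HFD regions had no ND partner. Of the ND peaks 84.0% (83.7 to 84.2%) were paired and 15416 were not. Of the HFD peaks 61.2% (61.0 to 61.5%) were paired and 50434 were not. The lists shared 44.9 Mb, which was 80.3% of the ND bases and 52.6% of the HFD bases. Little rested on the 1 bp limit, since 91 of 81291 pairs (0.112%) shared 10 bp or fewer, and 22 unpaired ND and 36 unpaired HFD peaks lay within 10 bp of the other list.

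The unequal shares went with list length. When the HFD list was limited to its 96063 highest-scoring peaks, a lowest score of 69.56, 74.2% of ND and 72.9% of HFD peaks were paired. Unpaired peaks then numbered 24822 in ND and 25991 in HFD. Of those 24822 ND peaks, 9406 did have a partner among the 34030 HFD peaks left out.

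Pairing followed the score in both lists. In the lowest score decile of ND 54.4% of peaks had an HFD partner, against 100% in the highest. In HFD the share went from 23.9% to 99.6%. With equal-length lists the lowest deciles came to 36.0% in ND and 40.1% in HFD, and the highest to 100% and 99.9%.

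**Figure D1:**
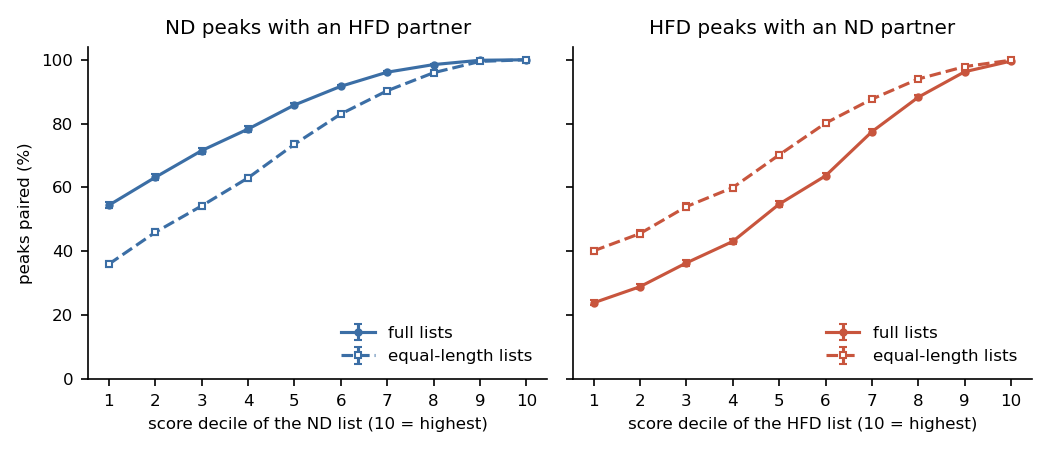
Share of autosomal peaks with a partner in the other list (vertical axis, %) by score decile of their own list (horizontal axis), for ND peaks on the left and HFD peaks on the right. Filled points and solid lines are the full lists, open points and dashed lines the equal-length lists, and bars are Wilson 95% intervals. Both full and equal-length lists approach 100% in the top decile, and the low deciles of ND and HFD lie near each other only with equal length.

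Width was compared over the 76945 pairs in which 1 ND peak met 1 HFD peak. The same region was usually wider in HFD: the median width was 515 bp in ND and 635 bp in HFD, and the median ratio was 1.17 (1.171 to 1.177). HFD was the wider member in 75.3% of pairs and the narrower in 24.4%. HFD was 1.5 times or more wider in 17710 pairs (23.0%) and 1.5 times or more narrower in 1802 (2.34%).

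The extra width lay on both sides. The left and the right end of the HFD peak each lay 34 bp further out at the median, and the midpoint moved by a median of 52.5 bp in either direction. In 50.8% of pairs the ND peak lay wholly inside the HFD peak, in 8.4% the HFD peak lay inside the ND peak, and in 40.8% the ends were staggered. The ratio was smallest for the strongest regions, with a median of 1.19 in the lowest ND score decile and 1.09 in the highest. With equal-length lists it was 1.17 (1.166 to 1.172), so the excess was as large without the low-scoring end of the HFD list.

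Some wider peaks took in neighbours. In HFD 1622 peaks joined 2 or more ND peaks (3254 ND peaks in all), while 642 ND peaks joined 2 or more HFD peaks (1286 in all). The HFD peak at Snapc1, which encodes a subunit of the small nuclear RNA activating complex, spanned 2312 bp and covered 3 ND peaks of 318 to 862 bp. At Cckbr, the cholecystokinin B receptor gene, 1 HFD peak of 2444 bp took in 3 ND peaks that lay 43 to 535 bp apart. Reep6 held an HFD peak of 2281 bp over 3 ND peaks. In the other direction an ND peak of 2199 bp at Gpc6, a glypican gene, met HFD peaks of 799 and 1098 bp.

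The pairs that differed most in width are named from those in the upper 50% of both lists by score, in a protein-coding gene record with 2000 bp on each side. They are the extremes of 38618 such pairs, so their size is a description. The largest width ratio was in Ralgapa1, a gene of the complex that restrains Ral GTPases, with 312 bp in ND (chr12:55634887-55635198) and 1931 bp in HFD (chr12:55633322-55635252), a ratio of 6.19. Snx27, the gene of an endosomal sorting nexin, had 308 bp in ND and 1871 bp in HFD, 6.07 times. In both genes the score rank was lower in HFD, by 11.2 and 15.8 points. Ube3b, Fut8 and Etv6 followed with ratios of 4.96, 4.46 and 4.28. At Fut8, the fucosyltransferase gene for the core of N-glycans, the score hardly differed, 191.01 in ND and 189.23 in HFD, although the HFD peak was 1357 bp wide and the ND peak 304 bp.

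HFD peaks that were much narrower were rarer. Mov10, an RNA helicase gene, had a peak of 998 bp in ND (chr3:104804041-104805038) and 277 bp in HFD (chr3:104804090-104804366), a ratio of 0.278. Snx9, another sorting nexin gene, had 5619 bp in ND and 1743 bp in HFD, a ratio of 0.310. Lrmda, Pmfbp1 and Prrc2b had ratios of 0.373, 0.403 and 0.411. All 5 narrower peaks ranked higher in HFD than in ND, by 2.66 to 27.2 points. For the 30 pairs named here and below, joining peaks within 500 bp first left every width ratio as it was. That setting is thus no check on them, and their ranks and reads were not redone with it.

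Score ranks are percentiles within a list, where 100 is the highest. The median pair ranked 4.82 points higher in HFD (4.67 to 4.97), and 18907 pairs (24.6%) stood 20 points or more higher there and 7071 (9.19%) 20 points or more lower. That direction turned with equal-length lists, where the median was −0.40 points, and ranks taken among the pairs alone, where it was −0.23. Among pairs alone 16.2% stood 20 points or more higher in HFD and 16.0% lower. Single pairs differed by far more than the median, with 5% below −28.7 points and 5% above 46.3.

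**Figure D2:**
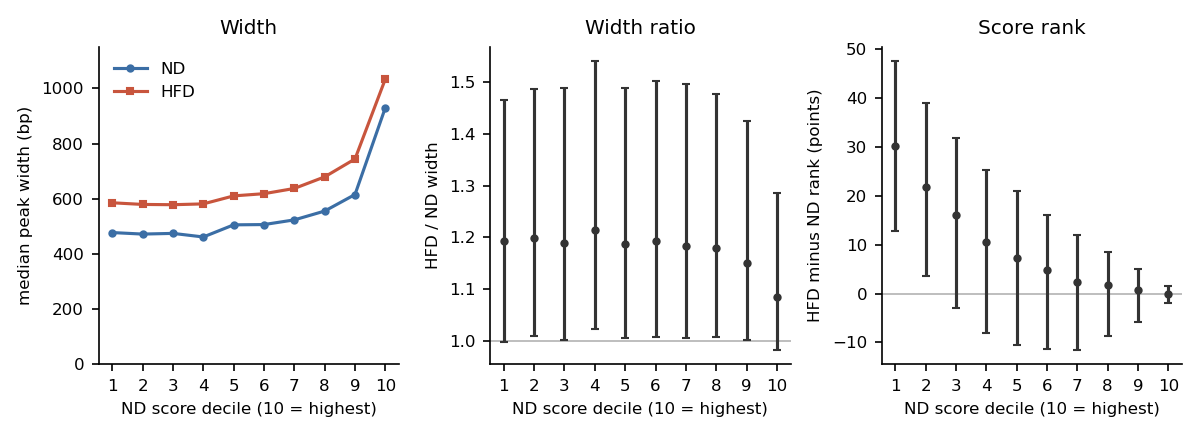
Pairs of 1 ND with 1 HFD peak by score decile of the ND peak (horizontal axis): median width in bp of each diet, the HFD over ND width ratio, and the HFD minus ND score rank in points. Points are medians and bars in the middle and right plots span the quartiles. HFD peaks were wider in every decile, from 1.19 times in the lowest to 1.09 times in the highest, and the rank difference was near 0 in the top decile.

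Score gives no comparison between diets at the top of the lists, where ranks are bounded and several peaks hold the same score of 3100.0. The 4 highest-scoring pairs lay in the records of Mctp1, Uxs1, Mdga2 and Pigk, with width ratios of 1.17, 1.09, 0.910 and 1.0. Uxs1 encodes UDP-xylose synthase, and its pair had that score in both lists with widths of 1626 and 1769 bp. Mdga2, an adhesion gene of neurons, also had it in both, with widths of 1158 and 1054 bp.

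Large rank differences are given for pairs with both peaks in the upper 50%. Mmel1, a membrane metalloendopeptidase gene, scored 105.13 in ND and 568.87 in HFD, 45.4 points higher in rank at nearly equal widths of 844 and 798 bp (ND peak chr4:154872481-154873324). Lman2, a lectin gene of the secretory pathway, scored 104.79 in ND and 478.58 in HFD, 44.2 points higher with a narrower HFD peak. Rhcg, an ammonium transporter gene, Loxhd1, a gene of inner ear hair cells, and Il31ra, an interleukin 31 receptor gene, stood 42.1, 42.0 and 41.8 points higher. The FAD peaks had score ranks of 98.8 at Mmel1, 90.6 at Lman2, 47.5 at Rhcg, 76.6 at Loxhd1 and 86.3 at Il31ra, nearer to HFD than to ND except at Rhcg.

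Differences in the other direction were somewhat smaller in full-list ranks. The median pair stood 4.82 points higher in HFD by those ranks, so rises and falls are not directly comparable in size. Larp1, the gene of an RNA-binding protein that acts on ribosomal protein messages, scored 262.8 in ND and 100.59 in HFD, a difference of −38.4 points (ND peak chr11:58049784-58050120). Auts2, a gene of neuronal development, went from 258.44 to 103.29, and Map3k7cl from 249.09 to 102.31. Kcnd3, a potassium channel gene, went from 256.0 to 106.03. Syne2, the gene of a nuclear envelope spectrin, went from 240.58 to 102.98. The FAD peaks had score ranks of 51.3 at Larp1, 58.9 at Auts2, 56.7 at Map3k7cl, 18.3 at Syne2 and 77.2 at Kcnd3, nearer to HFD than to ND except at Kcnd3.

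Read counts could be recovered in both members of 22087 pairs (28.7%), which leaves out nearly all peaks over 1000 bp wide, of which 0.825% in ND and 4.07% in HFD had a count. The median peak held 15 reads in ND and 24 in HFD, a median ratio of 1.54, and 0.940 (0.940 to 0.944) after division by the depth ratio of 1.64. Depth-scaled reads were within 1.5 times in 84.0% of pairs, 1.5 times or more higher in HFD in 1221 (5.53%) and lower in 2323 (10.5%). The median width ratio of these pairs was 1.20.

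The fold over background, reads over those due by width, was 7.09 in ND and 5.49 in HFD at the median, a ratio of 0.781. A pair needs a call in both lists, and the fewest reads for a call were 5.96 times the background in ND and 4.32 times in HFD. The part of these unequal limits in that ratio and in the depth-scaled reads was not tested. Reads were higher where width was: the median of depth-scaled reads was 0.829 where HFD was 1.5 times or more narrower, 0.916 where width was within 1.5 times and 1.06 where HFD was 1.5 times or more wider. Of the pairs that were 1.5 times or more wider in HFD, 42.6% still had fewer depth-scaled reads there. Of pairs with counts in the upper 50% of both lists and in a coding gene, Kirrel3, a synaptic adhesion gene, had the largest excess in HFD, with 15 reads in ND and 51 in HFD, 2.08 times after scaling. The Kirrel3 peak was 317 bp wide in ND and 1117 bp in HFD, and its fold over background was 8.94 in ND and 5.55 in HFD. Abcc5, Il23r and Sox5 followed at 1.93, 1.90 and 1.87 times. Sox5 was 296 bp wide in ND and 1234 bp in HFD, and its fold over background was 9.54 and 4.83. At Abcc5 the fold was 6.72 in ND and 6.96 in HFD, and at Il23r 7.17 and 7.81. These read excesses thus include reads of wider HFD peaks.

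Under the same limits the largest deficits in HFD included peaks of nearly equal width. Larp1 held 29 reads in ND and 19 in HFD, 0.40 of the ND value after scaling, in peaks of 337 and 363 bp. Kcnd3 held 31 and 21 reads (0.414) in peaks of 431 and 422 bp. Rasal2, a Ras GTPase activator gene, held 40 and 30 reads, and Kpna3, an importin gene, held 28 and 21, each 0.458 after scaling. Counts come from the score, so at nearly equal width the fewer reads at Larp1 and Kcnd3 restate their lower score.

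**Figure D3:**
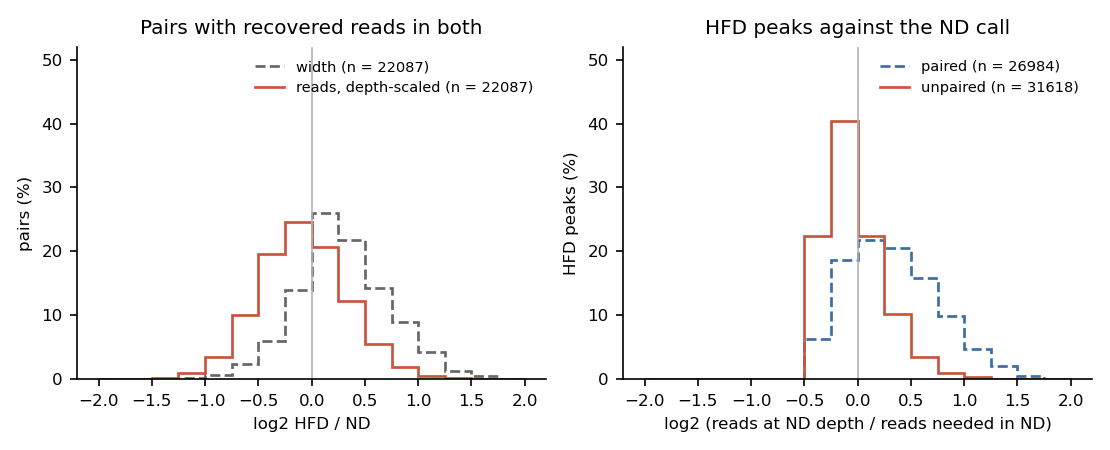
Left, 22087 pairs with recovered reads in both lists: share of pairs (%) by log2 of the HFD over ND width (dashed) and of the depth-scaled reads (solid). Right, HFD peaks with recovered reads: share (%) by log2 of their reads at ND depth over the fewest reads that ND would call at that width, for 26984 paired (dashed) and 31618 unpaired peaks (solid). Width sits to the right of 0 and scaled reads slightly to the left, and most unpaired HFD peaks lie below the ND need.

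Unpaired peaks were narrow and low in their lists. The median width was 451 bp for unpaired ND peaks and 519 bp for unpaired HFD peaks, against 520 and 641 bp for paired ones. The median score rank was 19.4 for unpaired ND and 27.1 for unpaired HFD peaks, against 57.3 and 67.3 for paired ones. Of the unpaired peaks 8.61% in ND and 19.3% in HFD stood in the upper 50%, and 9 in ND and 475 in HFD scored 200 or more. FAD peaks overlapped 23.4% of the unpaired ND and 26.0% of the unpaired HFD peaks, against 78.0% and 78.2% of the paired ones.

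Depth was set beside the unpaired HFD peaks directly. The need of a list is computed on its background mean, which 38.2% of ND and 45.0% of HFD peaks met. Where the mean at a place is higher, more reads are needed, so reaching the need does not show that a call was due. Among 31618 with a recovered count, 19854 (62.8%) would hold fewer reads at ND depth than the ND need at that width. The other 11764 (37.2%) would reach that need. Of the paired HFD peaks with a count 24.9% fell short in the same way. In 914 of the 11764 the lower 95% Poisson limit of the scaled count reached the ND need, and 615 of these 914 (67.3%) had a FAD peak. In 94 the scaled count was 2 times the need or more, and 78 of these had a FAD peak.

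For unpaired ND peaks the same reading is fixed by the lists. All 7626 with a count would reach the HFD need at HFD depth, because HFD called peaks at a lower fold over background. The lower limit reached the need in 853, of which 31.9% had a FAD peak, and the scaled count was 2 times the need or more in 404.

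The unpaired regions with the highest scores, over 5000 bp from the other list and in a gene, scored higher in HFD. Scores of lists of unequal depth are not a measure of relative strength. In HFD the highest was at Wrn, the Werner syndrome helicase gene, with a score of 406.33 over 902 bp (chr8:33263559-33264460). Plch2, a phospholipase C gene, followed with 349.69, Pard3, a cell polarity gene, with 346.53, Csmd2 with 340.57 and Atg7, an autophagy gene, with 328.99. All 5 had a FAD peak. In ND the highest was at Prkdc, the DNA-dependent protein kinase gene, with a score of 175.15 over 942 bp (chr16:15671061-15672002). Bmpr1b, a bone morphogenetic protein receptor gene, scored 171.73, Edil3 170.56, Ltbp1, a TGF-beta binding protein gene, 168.47 and the complement gene C6 168.05. Prkdc, Bmpr1b and Edil3 had a FAD peak, while the nearest FAD peak lay 44996 bp from Ltbp1 and 7217 bp from C6. Where a count was recovered, the fold over background overlapped between the diets. It was 14.3 at Pard3 and 8.78 at Atg7 in HFD. In ND it was 12.5 at C6, 12.1 at Bmpr1b, 9.04 at Ltbp1 and 6.98 at Prkdc.

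Ranked by reads over the need, a rule added after the values were seen, Pard3 came first in HFD. Its 43 reads in 319 bp correspond to 26.3 reads at ND depth, where the computed need on the background mean is 10. The fewest reads found in an ND peak with a count were 11. Ctnnd2, a catenin gene, had 40 reads (24.4 at ND depth, need 10), with the nearest ND peak 9647 bp away. Phactr1 and Adgrg6, an adhesion receptor gene, had 43 and 42 reads against a need of 11. FAD had a peak at Pard3, Phactr1 and Adgrg6 and none at Ctnnd2.

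In ND the first by that rule were Mctp1, Dennd5a and Bmpr1b, each with 22 reads. Scaled to HFD depth that is 36.0 reads, where the computed need on the background mean is 13. The nearest HFD peaks lay 12600, 12731 and 68814 bp away. These Mctp1 reads lie in another region of the gene than its top-scoring pair.

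The width ratio differed between genomic settings. Gene starts were taken from 1000 bp before to 500 bp after the start. For the 4208 coding genes without a known start, both gene ends were taken, from 2000 bp outside to 500 bp inside. The class called starts thus also holds peaks at other gene ends, and its values are not those of starts alone. At starts so defined the median width ratio was 1.21 (1.19 to 1.23) and in protein-coding gene records 1.20 (1.193 to 1.203). In other gene records it was 1.17 and between genes 1.15 (1.143 to 1.151). The rank difference went the same way, 6.84, 6.57, 4.54 and 2.74 points. Depth-scaled reads differed little, 0.940, 0.947, 0.940 and 0.934, but over fewer pairs. They cover the 612, 9999, 2007 and 9469 pairs with counts in both lists, where width and rank cover 2042, 36590, 6456 and 31857. Nearly all peaks over 1000 bp wide lack a count, so reads and width are not compared over the same peaks. ND widths differed between these settings, with medians of 504, 498, 518 and 538 bp.

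Within classes of ND width, set after the values were seen, the contrast in width was small. Among ND peaks up to 400 bp wide the ratio was 1.44 at starts, 1.46 in coding records and 1.46 between genes. From 400 to 600 bp it was 1.21, 1.20 and 1.19. Over 600 bp it was 1.10, 1.07 and 1.04, so a difference between starts and intergenic regions remained in the widest class. The rank contrast stayed above 400 bp. It was 10.3 points at starts and 7.41 between genes from 400 to 600 bp, and 5.11 and 0.332 over 600 bp, while up to 400 bp it was 5.0 and 5.07.

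Numbers of peaks by setting followed list length. HFD had 1.36 times the ND peaks at starts, 1.38 times in coding records and 1.33 times between genes, and with equal-length lists these were 1.03, 1.02 and 0.978. Over the 19 autosomes the width ratio ran only from 1.16 on chromosome 7 to 1.20 on chromosome 19. The number of HFD over ND peaks ran from 1.31 on chromosome 7 to 1.41 on chromosome 19.

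Few promoter windows carried a peak, and those had an intermediate CG content. A peak overlapped 416 windows in both lists (2.07%), 233 in HFD only (1.16%) and 71 in ND only (0.353%). The median number of CG in 300 bases was 8 where both lists had a peak, 6 where HFD alone or ND alone did, and 14 in the 19365 windows with none. CG was counted in all windows, and 95.6% held at least 1. The share with a peak was greatest in windows of 5 to 9 CG, 6.53% in ND and 8.92% in HFD, and was 0.698% and 0.859% in those with 20 or more.

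Many windows with a peak in 1 list only had a peak of the other list close by. Of the 233 HFD-only windows, 64 lay under an HFD peak that was paired outside the window and 97 under one over 5000 bp from any ND peak. Of the 71 ND-only windows the numbers were 21 and 25. Over promoter windows 382 pairs of 1 with 1 could be compared, and their median width ratio was 1.22 (1.18 to 1.25).

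Promoters of germline genes, which are silenced in somatic tissue, often had a peak in both lists. Of 45 germline genes with a promoter window, 24 did, and 4 had one in HFD only and 1 in ND only. Over all genes 393 of 16457 had a peak in both lists, and 2.07% of all windows did. The list, like all gene lists here, was chosen with earlier results of these data known, so its share is a description. In the 24 pairs the median width was 850.5 bp in ND and 1047.5 bp in HFD, and 6 were 1.5 times or more wider in HFD and 0 narrower, against 23.0% and 2.34% of all pairs. HFD ranked higher in 24 of 24 pairs, with a median of 9.04 points, and in 21 of 24 when ranks were taken among pairs alone, with a median of 7.71 points. Over all promoter windows the HFD rank was higher in 74.6% of pairs and, among pairs alone, in 59.4%, and over all pairs in 64.2% and 49.1%.

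Members named here were chosen after their values were seen. Sycp1, Sycp2, Sycp3 and Syce1 encode parts of the synaptonemal complex, which holds paired chromosomes together in meiosis. Sycp1 was 1349 bp wide in ND and 1391 bp in HFD, with scores of 302.33 and 490.94. Sycp2 was 1175 and 1089 bp wide, with scores of 310.08 and 492.33, and Sycp3 was 1071 and 1731 bp wide, with scores of 191.18 and 301.82. Syce1 was narrower in ND, 557 bp, and was 978 bp wide in HFD. HFD was the wider in 3 of the 4 and ranked 5.64 to 10.6 points higher in all 4.

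The piRNA pathway silences transposons in germ cells. Mael, needed for that pathway, had a peak of 750 bp and a score of 84.19 in ND and of 1447 bp and 216.89 in HFD, 45.1 points higher. Mov10l1, a piRNA helicase gene, was 902 bp wide in ND and 1217 bp in HFD. Tdrd1, a tudor domain gene, was 848 bp wide in ND and 807 bp in HFD. Piwil1, a PIWI protein gene, stood 4.82 points higher in HFD in the full lists and had a difference of −2.28 points with ranks among pairs alone. Dazl, a germ cell RNA-binding protein gene, was 1065 bp wide in ND and 2064 bp in HFD, the largest width ratio of the 24 at 1.94, with scores of 580.99 and 601.77. Mei1, a meiosis gene, had the largest rank difference in the full lists, 45.2 points, while among pairs alone Mael had the largest, 43.8 points, and Mei1 had 31.8.

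Most members with a window peak in 1 list had a low score. Figla, an oocyte transcription factor gene, and Hormad2 had HFD peaks scoring 66.88 and 51.2, and Tex14, a gene of germ cell bridges, one of 131.02. Sohlh2, a germ cell transcription factor gene, had an HFD peak of 1997 bp scoring 478.29 that was paired outside the window. Zp3, a zona pellucida gene, was the ND-only member, with a score of 66.09.

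Imprinted genes are expressed from 1 parental copy. Of 36 with a promoter window 11 had a peak in both lists, where 2.07% of all windows did, and 3 in HFD only. Neighbouring genes shared peaks here: Snrpn and Snurf had the same HFD peak, Peg3 and Usp29 the same pair of regions, and Zrsr1 the HFD peak of Commd1. All 8 that formed pairs of 1 with 1 were wider in HFD, 5 of them 1.5 times or more, where 75.3% and 23.0% of all pairs were. The median went from 528 to 1093.5 bp. Rank was higher in HFD in 7 of 8, but in 4 of 8 with ranks among pairs alone.

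At Zdbf2 the region went from 580 bp and a score of 78.47 in ND to 1189 bp and 302.17 in HFD, 57.4 points higher. At Mest it went from 476 bp and 122.1 to 1561 bp and 67.1, which was wider but 38.1 points lower in rank in HFD. At Plagl1 the width was 444 bp in ND and 1018 bp in HFD, and at Igf2r 309 and 833 bp. Gnas, the stimulatory G protein gene, differed little in width, 1099 and 1169 bp. Igf2 had 1 ND peak scoring 126.53 in its record, none in HFD and 1 in FAD.

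**Figure D4:**
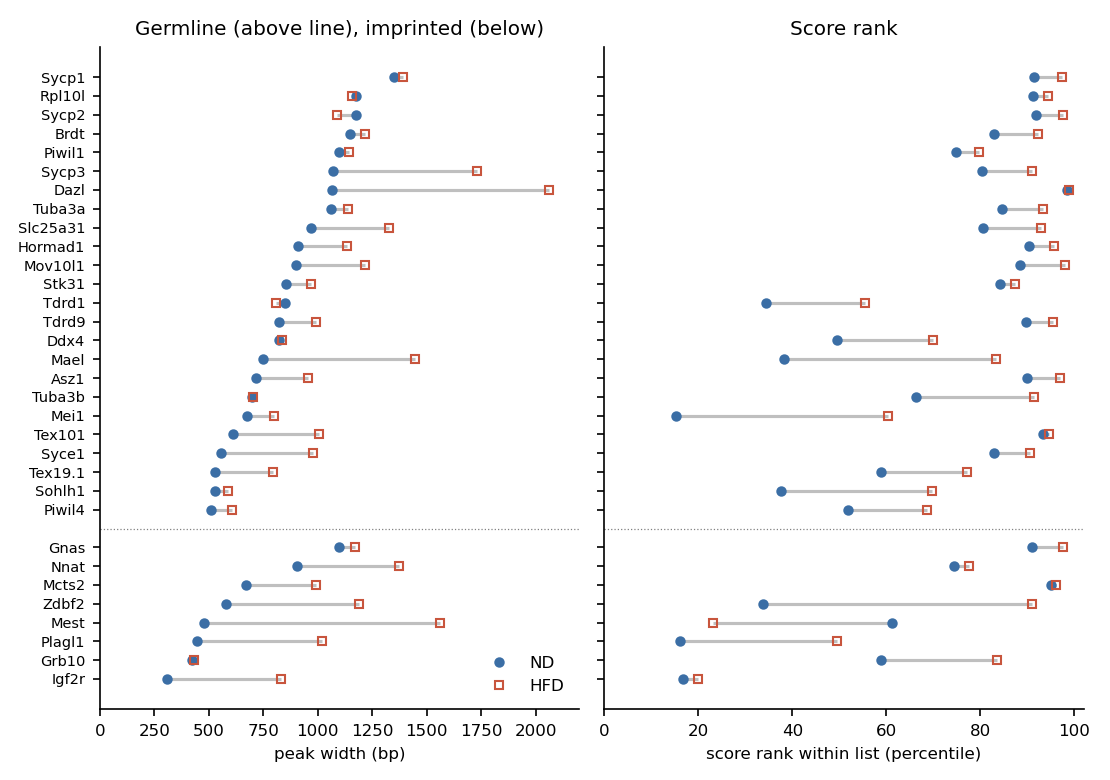
Promoter regions of 24 germline genes (above the dotted line) and 8 imprinted genes (below), with peak width in bp on the left and score rank within the list on the right. Filled circles are ND and open squares HFD, 1 library each. All germline squares lie to the right of their circles in rank, while Mest lies to the left.

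Genes were then compared by covered length, the peak bases inside a protein-coding gene record with 2000 bp on each side. Of 20665 autosomal genes 12705 had 1000 or more covered bases over both lists and were compared. The median HFD over ND ratio was 1.54, and genes are called higher or lower when 1.5 times or more above or below that median. By that rule 2479 genes (19.5%) were higher and 1656 (13.0%) lower. The higher genes include 329 with no ND base and the lower genes 8 with no HFD base, which the rule calls by construction. Peaks lay in HFD only at 1838 genes (8.89%) and in ND only at 387 (1.87%). With equal-length lists the median ratio was 1.23, and 16.3% were higher and 13.5% lower. Ratios were closer together in the 2970 genes with 5 or more peaks in each list, of which 161 were higher and 109 lower.

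Among genes with 5 or more peaks in each list, Plekhg1, a guanine nucleotide exchange factor gene, had the highest ratio, with 5 peaks and 2336 bases in ND and 16 peaks and 10223 bases in HFD, 4.38 times. Dpf3, a chromatin remodelling gene, had 9 peaks in ND and 25 in HFD, 3.80 times, and Gfra1, a GDNF receptor gene, 5 and 15 peaks, 3.69 times. Cblb, a ubiquitin ligase gene of immune cells (3.90 times), and Zfp521, a transcription factor gene of adipocyte precursors (3.86 times), were also among the first 5. For those 2 the direction turned in the upper 50% of scores, where they came to 0.583 and 0.968 of the median gene. Plekhg1 stood at 1.36 times the median gene there and was no longer called higher. At the low end Dnajc13, an endosomal chaperone gene, had 8 peaks in ND and 6 in HFD, a ratio of 0.626. Kcnc2, a potassium channel gene, had a ratio of 0.638, and Ccdc7b 0.717. In the upper 50% of scores Ccdc7b stood at 0.747 of the median gene and was no longer called lower, while Dnajc13 and Kcnc2 stood at 0.662 and 0.649 (0.406 and 0.414 with all peaks).

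Insulin and lipid genes were called at shares near those of all genes. Of 39 insulin signalling genes 10 were higher and 4 lower, beside 19.5% and 13.0% of all genes, with a median ratio of 1.63. With equal-length lists they were 6 and 7 of 37, where 16.3% and 13.5% of all genes were called. Insr, the insulin receptor gene, had the highest ratio with 1 peak of 500 bases in ND and 6 peaks and 3190 bases in HFD, and in the upper 50% of scores it stood at 0.989 of the median gene (4.14 times with all peaks and 1.80 times with equal-length lists). Pdpk1, a kinase gene upstream of Akt, was the lowest, with 2301 bases in ND and 1387 in HFD. Socs3, a feedback inhibitor of cytokine and insulin signals, had 2 HFD peaks and no ND peak. Of 39 genes of lipid synthesis, storage and breakdown 11 were higher and 6 lower, and with equal-length lists 7 and 8 of 39. Mogat1, a monoacylglycerol acyltransferase gene, had 1740 bases in ND and 5720 in HFD, and Scd1, the stearoyl-CoA desaturase gene, 1246 and 847. Plin1, the lipid droplet coat gene of adipocytes, had 2 HFD peaks and no ND peak.

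Peak lists measure no expression, so the tissue label could be set only beside methylation at adipocyte genes, which showed no common direction. Of all compared genes 19.5% were higher and 13.0% lower, and of 13 adipocyte markers 3 were higher and 3 lower, with a median of 1.55. Pnpla2, the main triglyceride lipase gene, had 689 bases in ND and 1801 in HFD. Cd36, a fatty acid transporter gene, had 1492 and 1124, though in the upper 50% of scores it stood 1.57 times above the median gene. Of the 13 adipocyte markers with a promoter window, none had a peak over it in ND and 1, Cidec, had one in HFD, with a score of 57.31. Adipogenic transcription factors had 6 higher and 2 lower of 23, and Pparg, their master regulator, had 1 HFD peak scoring 76.47 and none in ND. Adipokines and their receptors had 3 higher and 3 lower of 18, led by Nrg4 with 297 bases in ND and 2893 in HFD. Nrg4 stood 6.32 times above the median gene, and 2.39 times in the upper 50% of scores. Retn, the resistin gene, had 2 HFD peaks and no ND peak.

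Leukocyte markers had a larger share on the high side, 7 of 15 against 1 lower, with a median ratio of 2.08, where 19.5% and 13.0% of all genes were called. With equal-length lists 5 of 11 were higher and 2 lower, with a median of 1.52 against 1.23 for all genes. The higher members included Cd8a, a coreceptor of cytotoxic T cells, with 306 bases in ND and 2010 in HFD, Cd2 with 522 and 2054, and Itgam, a myeloid integrin gene, with 571 and 1969. Most of these genes held 1 or 2 ND peaks, so 1 weak peak sets a ratio. Adgre1, the macrophage marker F4/80, was the lowest at 1.02, with 4 peaks in each list. At the promoters Lck, a T cell kinase gene, had a peak in both lists, and Cd8a and Cd79a, a B cell receptor gene, had one in HFD only. The nearest ND peak lay 602 bp from that of Cd79a. By covered length 3 members had peaks in HFD only and 1, Ms4a1 with 553 bases, in ND only. Ptprc, with 1201 bases in HFD and none in ND, was called higher by construction. Endothelial markers had 2 higher and 0 lower of 12, mesothelial and fibroblast markers 1 and 2 of 10, and epididymal markers 2 and 0 of 3. The part of cell composition in any of these counts was not tested.

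Genes of the methylation machinery also had more members on the high side, 8 of 21 against 2 lower, where 19.5% and 13.0% of all genes were called. With equal-length lists they were 7 and 2, where 16.3% and 13.5% of all genes were called. The list's median of 1.16 was then below the 1.23 of all genes. Dnmt3a, a de novo methyltransferase gene, had 2 peaks and 762 bases in ND and 9 peaks and 5194 bases in HFD, 6.82 times. It stood at 4.43 times the median gene, and at 2.71 times with equal-length lists. Dnmt3b had 666 bases in ND and 2140 in HFD, and Dnmt3l, their cofactor gene, 505 and 2243. Mbd2, a methyl-CpG reader gene, had 1329 and 4713. Dnmt1, the maintenance methyltransferase gene, stood below the median at 1.16, with 7 peaks in each list. The demethylase genes Tet1, Tet2 and Tet3 were near the median, at 1.49, 1.62 and 1.52. Tdg, the thymine glycosylase gene, was the lowest at 0.607, and in the upper 50% of scores it stood at 0.770 of the median gene and was no longer called lower. Promoter peaks in HFD only were found at Dnmt3l, Apobec2 and Zfp57, with scores of 102.45, 91.91 and 74.49.

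Developmental transcription factors were spread to both sides, with 12 higher and 7 lower of 39, where 19.5% and 13.0% of all genes were called. Hoxd3 had 530 bases in ND and 3149 in HFD, but stood at 0.793 of the median gene in the upper 50% of scores. Gata4 had 313 and 1746 bases and Pax3 320 and 1853, each from 1 ND peak. Tbx18, a gene of mesenchymal progenitors, was the lowest compared gene of its list, with 1976 bases in ND and 331 in HFD. Tbx18 stood at 0.109 of the median gene, and at 0.189 without the flanks.

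In the full lists, other gene lists held fewer calls for their size or calls on both sides, where 19.5% of all genes were higher and 13.0% lower. Extracellular matrix genes had 6 higher and 1 lower of 39, led by Lamc1, a laminin gene with 2442 bases in ND and 8105 in HFD. In the upper 50% of scores Lamc1 stood at 1.41 times the median gene and was no longer called higher. With equal-length lists the matrix genes had 10 higher and 3 lower of 39, where 16.3% and 13.5% of all genes were called. Their share on the high side was then above that of all genes. One-carbon metabolism genes had 6 and 2 of 37, and 1 and 4 of 35 with equal-length lists. The cAMP signalling genes had 9 and 2 of 43, and clock genes 5 and 1 of 23. Within cAMP signalling Adcy8, an adenylate cyclase gene, had 1 ND peak of 311 bases and 9 HFD peaks of 5137 bases. It stood at 10.7 times the median gene, and at 2.58 times in the upper 50% of scores. Thermogenic genes had 4 and 3 of 18, inflammation genes 5 and 5 of 27, imprinted genes 6 and 3 of 36 and housekeeping genes 3 and 3 of 14. Germline gene bodies and flanks, with 6 and 6 of 46 and a median of 1.42, were below the median gene, but with equal-length lists they had 7 and 2 of 44 and a median of 1.34, above it.

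**Figure D5:**
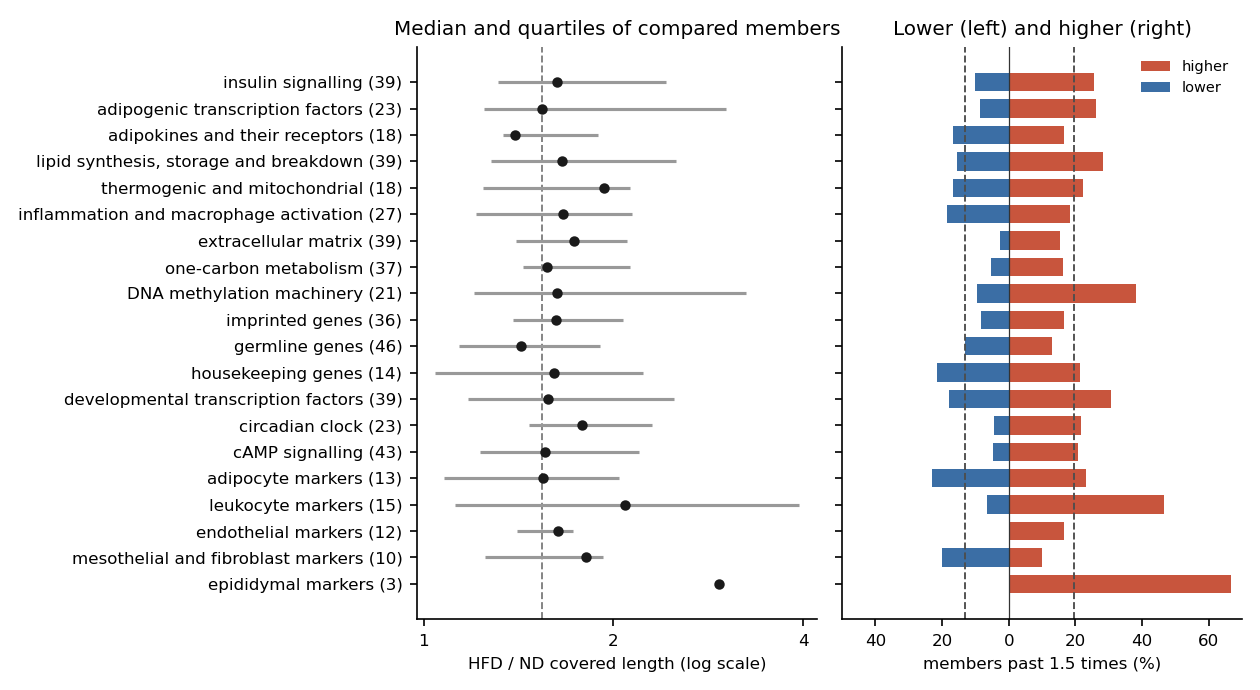
Covered length per gene in 20 gene lists, with the number of compared members in brackets. Left, median and quartiles of the HFD over ND ratio on a log axis with the median of all genes dashed (quartiles are left out for the epididymal list, where 1 member has no ND base). Right, share of members higher and lower by 1.5 times or more (%), with the shares over all genes, 19.5% and 13.0%, dashed. Among lists of 10 or more compared members, leukocyte markers (7 of 15) and methylation machinery (8 of 21) have the largest shares on the high side.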

How the data were processed

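MeDIP-seq libraries of the ND, HFD and FAD groups, 1 each and grouped by the labels, were used as peak lists. The deposited lists are 1 per library, and the submitters' processing notes name the build mm10. They give position, a name with a MACS prefix and the authors' score per peak. Not given in the sources used here are the aligner, caller settings, control and duplicate handling.

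The scale of the deposited score is not stated. It was inferred after the data were seen as −10 log10 of the upper tail of a Poisson law, with a mean of background times the larger of peak width and a window (334 bp in ND, 366 bp in HFD, 306 bp in FAD). A constant mean, other width offsets and a cap of 1000 bp on the width were tried and gave fewer matches or no more. Counts were accepted within 0.02 of a step, and the 12 most frequent scores of each list all lay on one. Everything based on read counts was added after the data were seen, as were ranks among pairs, the choice of printed promoters, the classes of ND width and the naming by reads. Members and gene lists were chosen with earlier results of these data known.

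Overlap, covered length and nearest distance were computed in Python 3.11.15 with numpy 2.4.6, pandas 2.3.3 and scipy 1.17.1, and figures with matplotlib 3.10.9. The pairing was checked against bedtools 2.31.1, with equal partners for all 96063 ND peaks. The recovery of counts was run on scores simulated with the same Poisson formula. It gave the right count in 100.0% of background peaks and a count to at most 0.46% of those simulated with a higher mean. That checks the arithmetic and cannot show that the deposited score has this scale. Gene positions and promoter sequences came from RefSeq tables of GRCm38.p6, with no start for 4208 coding genes. Of 783 listed symbols 757 matched an autosomal coding gene and 493 were compared. The midpoint of a peak decided its genomic setting. Exons and introns were not analysed here. No test was run, with 1 library per diet.

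Named pairs are the 5 extremes of width ratio and of rank difference in each direction among pairs in the upper 50% of both lists and in a coding gene, the 4 highest-scoring pairs, the 4 extremes of scaled reads, the 5 highest unpaired peaks over 5000 bp from the other list, and the 4 peaks of each list that join most. Named genes are the 5 extremes of covered length ratio among genes with 5 or more peaks in each list, and the extremes of each gene list with up to 2 members found in 1 list only. Numbered Gm and Rik symbols were not named. Some regions that these rules pick are not reported here. Members of the promoter, lipid, leukocyte, methylation and developmental lists named beyond this rule were chosen after their values were seen. Alternatives were equal-length lists, the upper 50% of each list, a reciprocal overlap of 50%, all chromosomes, joining within 500 bp, other covered-length minimums, no flank and a limit of 2 times.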

Additional observations from a re-analysis of the deposited data

How the results depend on the processing

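With equal-length lists 74.2% of ND and 72.9% of HFD peaks were paired, 24822 and 25991 were unpaired, the width ratio was 1.17, the rank difference turned to −0.40 points and the median gene ratio was 1.23. In the upper 50% of each list the values were 84.9% and 62.2%, 7246 and 24607, 1.15, 5.14 points and 1.52. A reciprocal overlap of 50% gave 75.4% and 55.7%, 23652 unpaired ND peaks and a width ratio of 1.15. With X and Y included the values were 83.4%, 61.9%, 1.17 and 4.51 points, and with peaks joined within 500 bp the shares were 84.4% and 62.0%. With no peak of the other list within 5000 bp, 6611 ND and 31702 HFD peaks were unpaired.

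Alternatives chosen after seeing the data were the HFD peaks with a recovered count, of which 46.0% were paired, those whose count at ND depth reached the ND need (63.3%), pairs with counts in both lists (width ratio 1.20) and ranks among pairs alone (−0.23 points). A minimum of 3000 covered bases gave 868 genes higher and 559 lower, and no minimum gave 3898 and 2553 with a median of 1.57. A limit of 2 times in place of 1.5 left 53 of 109 list members higher and 18 of 50 lower. Relative to the median gene, 9 named genes turned in the upper 50% of scores: Cblb (0.583), Zfp521 (0.968), Insr (0.989), Hoxd3 (0.793), Spink10 (0.871), Cds1 (1.43), Cntnap4 (1.28), Gata3 (1.55) and Cd36 (1.57). The cause was not tested beyond the construction of each setting.

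No paired analysis was possible because each diet has 1 library. No replicate can be left out. Read counts are known for the narrower and weaker peaks, so statements on reads cover 28.7% of the pairs of 1 with 1. A peak missing from a list means no call there at that depth, not absence of methylation.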

Other observations

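On the X chromosome the lists held 3160 ND and 3152 HFD peaks, a ratio of 0.997, and on the Y chromosome 2309 and 1879, a ratio of 0.814, where the autosomes gave 1.35. FAD held 2875 peaks on X and 2274 on Y. The width ratio of pairs was 1.09 on X and 1.04 on Y. Of the ND peaks 76.8% on X and 67.6% on Y were paired, and of the HFD peaks 75.5% and 82.5%. These chromosomes enter no comparison above.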
